A study of Mus musculus with 5 samples.

Results

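The 10 genes described here belong to the bone morphogenetic protein (BMP) pathway and were taken by symbol from the 31053 genes of the deposited tables. They are the ligands Bmp2, Bmp4 and Bmp7, the receptors Bmpr1b and Bmpr2, the inhibitory SMADs Smad6 and Smad7, and the target genes Id1, Id2 and Id3. Each was followed through granulosa cell stages, mesenchymal subtypes and vessel cells of the mouse ovary. The samples were dissociated ovaries of C57BL6/J mice, labelled as having had no treatment, at 2, 3, 4, 5 and 6 wk of age. Ovaries were digested with trypsin, live cells were taken by sorting out those that took up a dye of dead cells, and 1 library per age was made by droplet capture (10x Genomics, 3′ v3.1). With 1 library per age there is no replicate, so no comparison below was tested, and all intervals are exact 95% intervals for counting error only. The number of mice behind a library is not given in the labels.

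BMP ligands are secreted dimers that bring together a type I receptor such as BMPR1B and the type II receptor BMPR2. The active receptors phosphorylate SMAD1, SMAD5 and SMAD9, which enter the nucleus with SMAD4 and raise transcription of the Id genes and of Smad6 and Smad7. SMAD6 and SMAD7 in turn restrain the receptors, and the ID proteins bind basic helix-loop-helix factors and keep them from DNA. In the ovary BMPs from theca, granulosa and germ cells are known for holding back progesterone synthesis and for modulating the response of granulosa cells to follicle-stimulating hormone.

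The libraries held 7779 to 11077 cells and 93438618 to 144609431 unique molecular identifiers (UMIs, which number the RNA molecules captured), with a median of 9056 to 12424 UMIs per cell. The tables of 2, 3 and 4 wk came from Cell Ranger 3.1.0 and the later ones from version 6.0.1, so age and software version cannot be told apart across that border. Scrublet called 2.08 to 5.01% of the cells of a library doublets, and 273 barcodes occurred in more than 1 library. Cells were clustered without the members and the other BMP genes among the variable genes, and 35258 of 48163 cells fell into 20 groups named from marker genes. A name here is short for a cluster that is like that cell type, and the names were rebuilt, so a difference from the study's own groups may come from them. The granulosa groups were primordial (815 cells), preantral (5344 cells, since primary and secondary stages did not separate), antral (2356 cells), remodeling (3202 cells) and dividing (2782 cells). Remodeling cells were led by genes such as S100a6, Tinagl1 and Lox, and numbered 82, 129, 1344, 756 and 891 at 2, 3, 4, 5 and 6 wk. The mesenchymal groups were early theca, late theca, dividing cells and subtypes named for Tagln, Hoxd9, Cxcl12, Cd24a, Col11a1 and Col14a1. All 8 remodeling markers, all 6 late theca markers and all 6 markers each of pericytes, blood endothelial, lymphatic endothelial and hematopoietic cells were highest in the group of that name. The other lists were highest in their group for 3 to 6 of their markers. The same lists gave the names, so these counts are no independent check of them. The data went against 2 labels. In the Cxcl12+ group 0 of its 6 markers were highest (summed 2461 counts scaled to the group's total, CPM, against 5112 CPM in Col14a1+ cells), and the primary-stage list summed to 3425 CPM in preantral and 3974 CPM in primordial cells, so both names are used as labels of clusters only.

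Windows before the listed starts were read for Smad6, Id2 and Bmp4, and those of the targets Smad6 and Id2 are printed. Whether these windows take part in a response to BMP SMADs was not tested. The RefSeq promoter table for GRCm38.p6 held 6 of the 10 members, among them Id3, whose window was not read. The windows of Smad6 and Id2 are printed for the bases that precede the listed start and lie outside annotated exons. The Smad6 window is chr9:64022060-64022309 on the minus strand, directly before the gene. The Id2 window is chr12:25096254-25096342 on the minus strand, inside the gene as GENCODE has it, and lies in an intron of a longer Id2 transcript. Capitals mark GGCGCC, a sequence known to bind BMP SMADs, and GTCT or its reverse complement AGAC, the short SMAD-binding element, both searched on both strands.
Smad6: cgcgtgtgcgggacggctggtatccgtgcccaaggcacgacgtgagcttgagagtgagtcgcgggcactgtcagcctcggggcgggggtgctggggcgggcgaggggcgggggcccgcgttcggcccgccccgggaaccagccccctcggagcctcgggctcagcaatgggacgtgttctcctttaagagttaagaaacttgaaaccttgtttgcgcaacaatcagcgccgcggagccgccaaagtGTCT
Id2: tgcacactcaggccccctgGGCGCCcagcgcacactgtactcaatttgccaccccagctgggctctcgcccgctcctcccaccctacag
The 89 bases of Id2 held 1 GGCGCC, which 2.73% of all windows of that length hold, and 0 GTCT. The 250 bases of Smad6 held 1 GTCT, as 82.9% of all windows of that length do, and 0 GGCGCC. The 250 bases read for Bmp4, which are not printed, also held 1 GTCT and 0 GGCGCC. These matches describe the letters in the windows and no more.

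Each level is in CPM: within 1 library, a gene's UMIs are added up over a group's cells and scaled to 1000000 UMIs of those cells, and values in a row follow the ages 2, 3, 4, 5 and 6 wk. The groups in which a member was highest differed between members. By the median over libraries, with rete ovarii cells set aside because only the 2 and 3 wk libraries held 30 or more of them, Bmp2, Bmpr2, Smad6 and Smad7 were highest in remodeling granulosa cells, Bmpr1b in antral granulosa cells, Bmp4 in Hoxd9+ cells, Bmp7 in Cd24a+ cells, Id1 in blood endothelial cells, Id2 in Tagln+ cells and Id3 in pericytes. This order was loose for most of them. Of 18 neighbouring pairs in the ranking of 19 groups, the order was the same in each shared library for 0 pairs of Id1, 1 pair each of Bmp2, Smad6 and Smad7, 2 pairs each of Bmp7, Id2 and Id3, 3 of Bmp4, 4 of Bmpr2 and 6 of Bmpr1b. The first place was held in each library against the second only by Bmp4, Bmpr1b, Id2 and Id3. For Bmp4 the 2 wk margin was small, with 13.51 CPM in Hoxd9+ and 13.46 CPM in blood endothelial cells. Groups ranked lower by their median were above Hoxd9+ cells in single libraries. At 2 wk these included Cd24a+ cells (26.4 CPM) and primordial granulosa cells (25.9 CPM). At 3 wk primordial cells had 23.4 CPM of Bmp4 and Hoxd9+ cells 22.1 CPM. At a clustering resolution of 0.6 only 6 of 10 members kept their highest group.

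**Figure D1:**
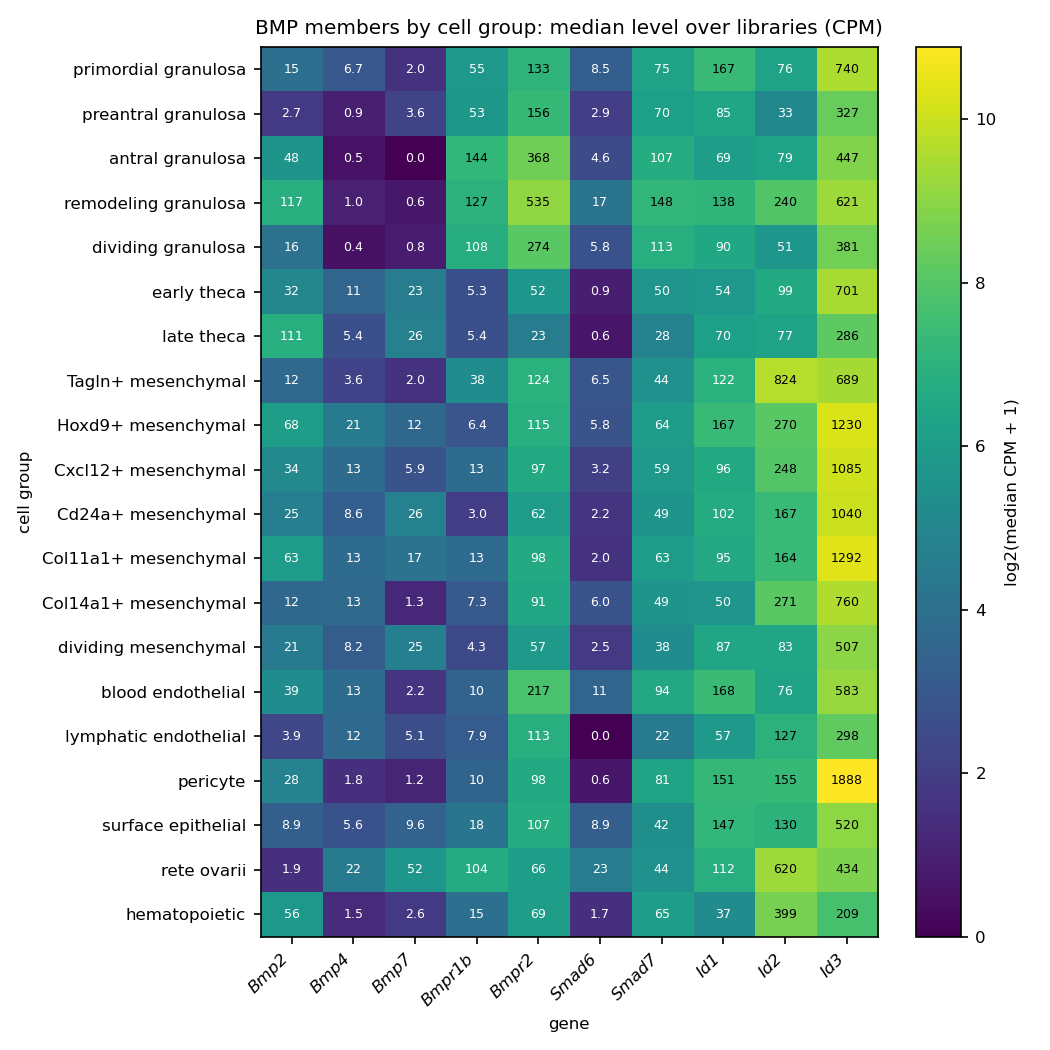
Heat map of the median CPM over libraries (log2 scale of CPM + 1, shown by colour, brighter for higher, with the CPM printed in each cell) of the 10 BMP genes (columns) in the 20 named cell groups (rows). Bmpr1b and Bmpr2 are brightest in antral and remodeling granulosa cells, Id2 in Tagln+ cells and Id3 in pericytes.

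Bmp2 was low in preantral granulosa cells and, from 4 wk on, higher in remodeling cells than in the cells named antral, taken as a whole. Its level in primordial cells was 17.5, 22.9, 14.9, 9.33 and 7.41 CPM. In preantral cells it was 1.82, 2.66, 7.68, 2.56 and 3.04 CPM, the lowest median of any granulosa group. Antral cells stood at 11.3 and 7.01 CPM at 2 and 3 wk and at 48.3, 57.0 and 75.1 CPM from 4 to 6 wk. Remodeling cells had 10.4 CPM at 2 wk (interval 4.76 to 19.7), 48.8 CPM at 3 wk, and 138, 117 and 166 CPM at 4, 5 and 6 wk. Both groups were thus at their lowest in the first 2 libraries, and from 4 wk on each remodeling value lay above each antral value. Bmp2 was detected in 56.7% of remodeling cells, 30.9% of antral cells and 2.81% of preantral cells, with median depths of 12582, 14949 and 14084 UMIs. Thinned to 3000 UMIs per cell the shares were 28.5%, 13.2% and 0.848%, and by library the preantral share ran from 0.553% to 2.08%. How much of this share comes from free RNA was not tested. Thinning left out 29 remodeling, 29 antral and 35 preantral cells with fewer UMIs.

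The other ligands were scarce in granulosa cells. Bmp4 was present in primordial cells at 25.9 and 23.4 CPM at 2 and 3 wk and at 3.97, 6.66 and 4.63 CPM afterwards. In preantral, antral, remodeling and dividing cells it stayed between 0 and 3.63 CPM in every library. Bmp7 had its highest granulosa median in preantral cells, at 3.21 to 4.44 CPM, although remodeling cells reached 6.32 CPM at 3 wk and primordial cells 5.33 CPM at 5 wk. It was nearly undetected in antral cells, with 1 UMI in all 5 libraries, which is 0.0269 CPM (0.000682 to 0.150). A single antral cell of 2356, or 0.0424% (0.00107 to 0.236%), held that UMI.

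The receptors were higher in antral than in primordial and preantral cells of every library. Bmpr1b, a type I receptor known for its influence on ovulation rate in sheep, was at 42.1 to 71.4 CPM in primordial and 46.9 to 80.3 CPM in preantral cells. In antral cells it was 140, 127, 145, 190 and 210 CPM. Remodeling cells had 74.0, 89.4, 127, 140 and 159 CPM, below the antral cells of the same library, taken as a whole, at all 5 ages. Bmpr2, the type II receptor, was at 131 to 213 CPM in primordial cells and at 91.2 to 169 CPM in preantral cells. Antral cells held 184, 307, 368, 499 and 532 CPM, and remodeling cells 106, 254, 535, 560 and 664 CPM. At 2 and 3 wk antral cells were higher than remodeling cells, and from 4 wk remodeling cells, taken as a whole, were higher. The later order did not hold for each cluster within these groups, as given below. Bmpr2 lies at chr1:59763400-59879014 on the plus strand of GRCm38 and shares bases with Gm38125 on the same strand, so reads of the overlap cannot be assigned with certainty.

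The inhibitors differed from each other. Smad6 was sparse, with 3214 UMIs in all named and unnamed cells together. Remodeling cells held 17.3, 2.71, 6.68, 19.2 and 30.3 CPM of Smad6 and antral cells 4.35, 1.89, 4.56, 7.51 and 7.09 CPM. The remodeling value was above the antral value in all 5 libraries, but at 3 wk only 3 and 7 UMIs stood behind the values. Smad7 was present in each granulosa group. Its level in remodeling cells was 77.4, 85.8, 156, 216 and 148 CPM, and in antral cells 43.9, 107, 156, 158 and 99.4 CPM. These groups overlapped.

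The Id genes did not share a pattern along the stages. Id1 was higher in primordial and remodeling cells, with 239, 143, 147, 208 and 167 CPM in primordial cells and 104, 108, 138, 293 and 246 CPM in remodeling cells. Antral cells held 68.6, 105, 62.9, 97.1 and 65.6 CPM, below both groups in each library. Id2 was lowest in preantral cells, at 21.0 to 48.1 CPM. In antral cells Id2 was 68.2, 79.2, 52.7, 168 and 260 CPM, and in remodeling cells 240, 152, 114, 286 and 468 CPM. Each remodeling value of Id2 was above the antral value of its library, with the antral group taken as a whole. Id3 was 669 to 890 CPM in primordial cells, 289 to 414 CPM in preantral cells, 270 to 577 CPM in antral cells and 448 to 989 CPM in remodeling cells. In dividing cells Id3 stood at 240 to 490 CPM, a range that holds the preantral one.

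**Figure D2:**
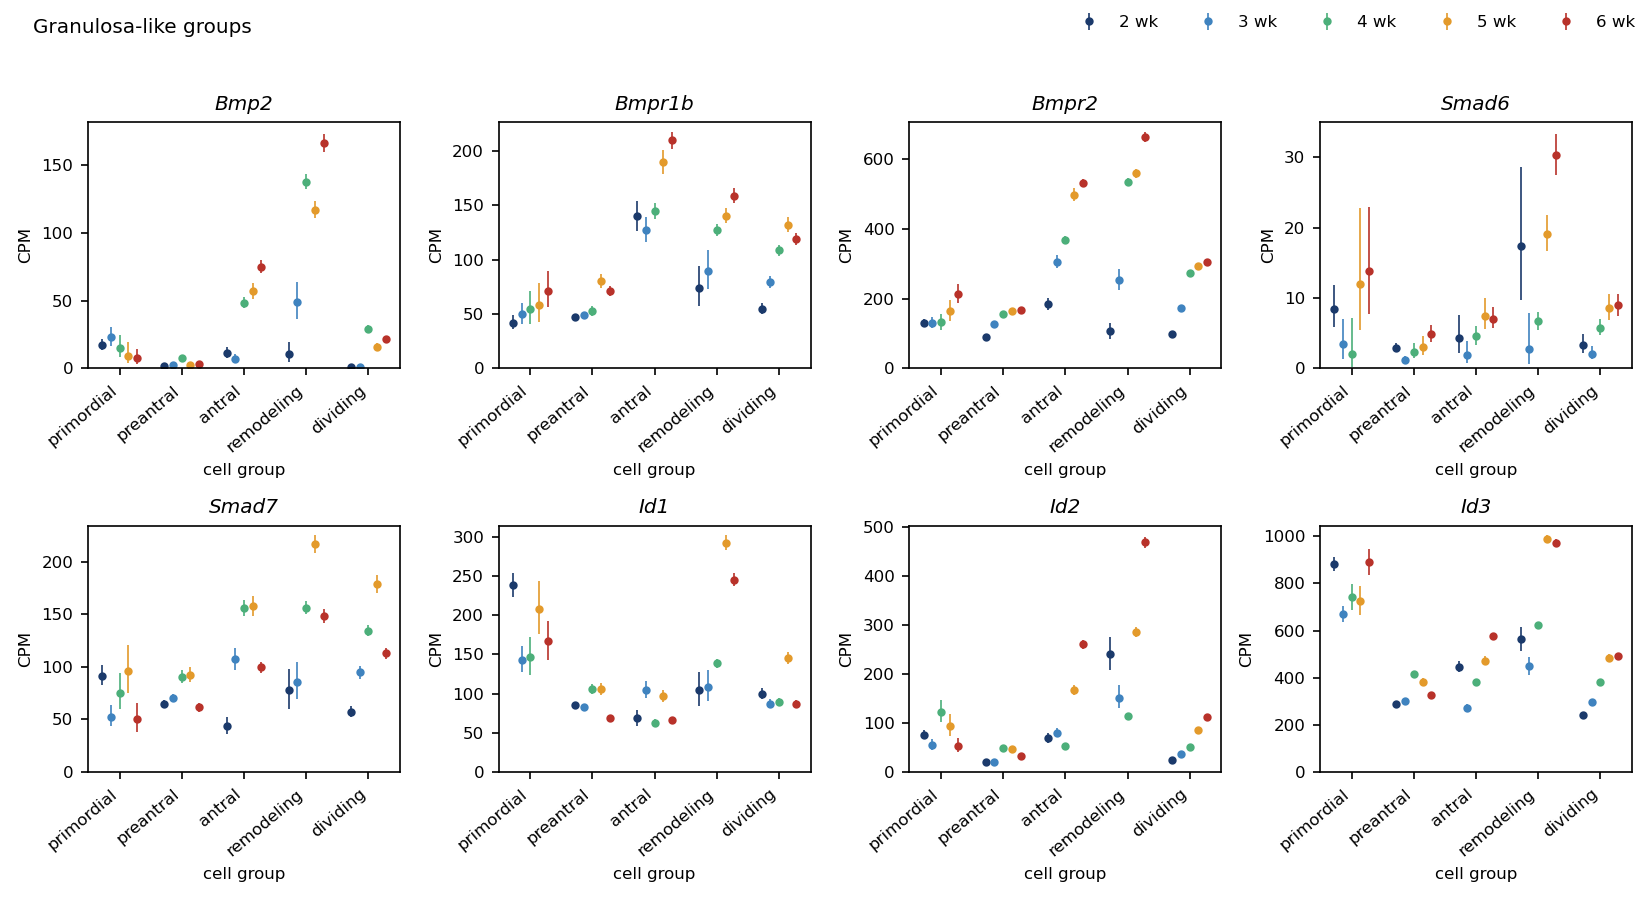
Level in CPM of 8 BMP genes in 5 granulosa groups, 1 point per library with its 95% Poisson interval, coloured by age. Bmp2 and Bmpr2 are highest in remodeling cells from 4 wk on, Bmpr1b is highest in antral cells, and Id1 is higher in primordial and remodeling than in antral cells.

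Remodeling cells were compared with antral cells within the 4, 5 and 6 wk libraries, since the study is about first-wave follicles that lose their oocyte and keep some granulosa cells, beside others that grow to the antral stage. Bmp2 was higher in remodeling cells by 2.85-fold (2.59 to 3.15), 2.06-fold (1.83 to 2.32) and 2.21-fold (2.06 to 2.38). Id1 was higher by 2.20-fold (2.02 to 2.40), 3.01-fold (2.77 to 3.29) and 3.74-fold (3.48 to 4.03). A gene was called where it differed at least 2-fold the same way in each library, and genes entered with 50 or more UMIs in the 2 groups together in every library. Of the 8 members that reached this minimum, 2 were called higher (Bmp2 and Id1) and 0 lower, beside 4.43% of 10496 genes called higher and 2.29% called lower. The median ratio of the 8 was 1.74, against 1.01 over all genes that reached the minimum. The study, from these same cells, names Bmp2 among the genes preferentially expressed in its remodeling clusters. The members were chosen with earlier results of these data known, so this count and median are no independent support. Bmp4 and Bmp7 did not reach it. The members that were not called were Id2 with ratios of 2.17, 1.70 and 1.80, Id3 with 1.64, 2.09 and 1.69, Smad6 with 1.46, 2.55 and 4.28, Smad7 with 1.001, 1.37 and 1.49, Bmpr2 with 1.45, 1.12 and 1.25, and Bmpr1b with 0.881, 0.740 and 0.757. In the small remodeling groups of 2 and 3 wk the Bmp2 ratio was 0.925 (0.387 to 1.99) and 6.96 (4.29 to 11.6), and that of Bmpr2 was 0.577 and 0.828, on the other side of 1 from the later libraries. With every cell weighted alike the Bmp2 ratios ran from 1.55 to 2.40 and Id1 alone was called. For calls under such alternatives, here and below, the share over all genes was not counted.

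**Figure D3:**
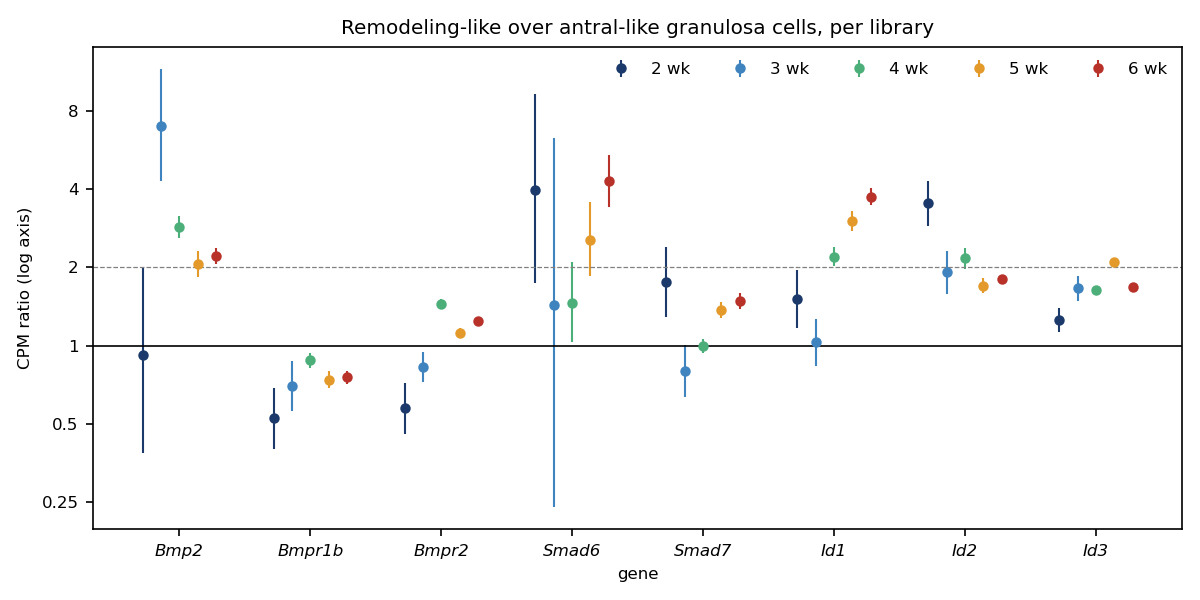
Ratio of the CPM in remodeling to antral granulosa cells (log axis) for each member with enough UMIs, 1 point per library with its 95% interval. Bmp2 and Id1 lie at or above 2 at 4, 5 and 6 wk, while Bmpr1b lies below 1.

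The antral group was not uniform, and the Bmp2, Bmpr1b, Bmpr2 and Id2 differences depended on which antral cluster was used. It held cluster 8 (1014 cells, led by Dnajb13, Slc38a5 and Nap1l5), cluster 11 (812 cells, led by Cyp11a1, Inhba and Lhcgr) and cluster 13 (530 cells, with Ntng1, Nppc and Grem1 among its leading genes). At 4, 5 and 6 wk Bmp2 was 17.1, 12.5 and 12.8 CPM in cluster 8, 51.8, 34.4 and 73.1 CPM in cluster 11, and 143, 235 and 194 CPM in cluster 13. Remodeling cells were thus not above cluster 13, standing at 0.965, 0.499 and 0.859 times its level. Against cluster 8 the same ratios were 8.06, 9.38 and 12.99, and against cluster 11 they were 2.67, 3.41 and 2.28. Among the antral clusters Bmpr1b and Bmpr2 were also highest in cluster 13, with Bmpr1b at 201, 292 and 333 CPM and Bmpr2 at 596, 832 and 833 CPM. For Bmpr1b remodeling cells stood at 0.633, 0.481 and 0.476 times cluster 13 and at 0.789, 0.825 and 0.801 times cluster 11. Against cluster 8 the Bmpr1b ratios were 1.04, 0.834 and 1.03, and the intervals at 4 and 6 wk held 1. For Bmpr2 remodeling cells stood at 0.897, 0.673 and 0.798 times cluster 13. The same ratios were 1.85, 1.59 and 1.85 against cluster 8, and 1.36, 1.002 and 1.23 against cluster 11. Id1 behaved differently. It was 36.0, 80.9 and 101 CPM in cluster 13, and remodeling cells exceeded this by 3.85, 3.62 and 2.42 times. Against cluster 8 the Id1 ratios were 1.99, 2.43 and 5.86 and against cluster 11 they were 1.97, 4.31 and 3.53. The Id2 ratios were 2.29, 4.905 and 5.21 against cluster 8 and 1.74, 1.03 and 1.425 against cluster 11. Against cluster 13 those of Id2 were 2.25, 0.970 and 1.07. Id3 ratios were above 1 against clusters 8 and 11, and 1.31, 1.46 and 0.910 against cluster 13.

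The remodeling group was split as well. Cluster 0 (2023 cells, led by S100a6, Tinagl1 and Rrad) had 107, 89.8 and 129 CPM of Bmp2 at 4, 5 and 6 wk, and cluster 7 (1179 cells, led by Lox, Adamts5 and Ghr) had 182, 184 and 238 CPM. Bmpr2 followed the same order, with 393, 415 and 506 CPM in cluster 0 and 734, 912 and 967 CPM in cluster 7. At 5 and 6 wk cluster 0 was thus below the antral group, which had 499 and 532 CPM. Cluster 7 gave 1, 18, 604, 241 and 315 of the remodeling cells at 2, 3, 4, 5 and 6 wk. Its part in the rise of Bmpr2 in remodeling cells with age was not tested. The Id genes did not. Id1 was 158, 325 and 276 CPM in cluster 0 and 111, 214 and 187 CPM in cluster 7, and Id2 was 121, 306 and 569 CPM against 105, 236 and 275 CPM. Cluster 2, an unnamed granulosa cluster of 1774 cells led by Cda, Vpreb3 and Smim5, held 85.9, 102 and 83.03 CPM of Bmp2 at those ages. At 2 and 3 wk it held 5.75 and 12.4 CPM. Cluster 2 was counted in neither the antral nor the remodeling group. Its best score was on the remodeling list (1.001, against 0.701 for the next list), while Vpreb3 is on the antral list. At 4, 5 and 6 wk cluster 2 lay above the antral group, which had 48.3, 57.0 and 75.1 CPM of Bmp2. Adding it to that group would thus lower the ratio of remodeling to antral cells at each of these ages. Cluster 2 also lay below the remodeling group, which had 138, 117 and 166 CPM of Bmp2. Adding cluster 2 to the remodeling group instead would thus lower the ratio as well. At 5 wk the ratio without cluster 2 was 2.06, close to the limit of 2. The Bmp2 call was made with cluster 2 left out, and the call with it added to either group was not tested.

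**Figure D4:**
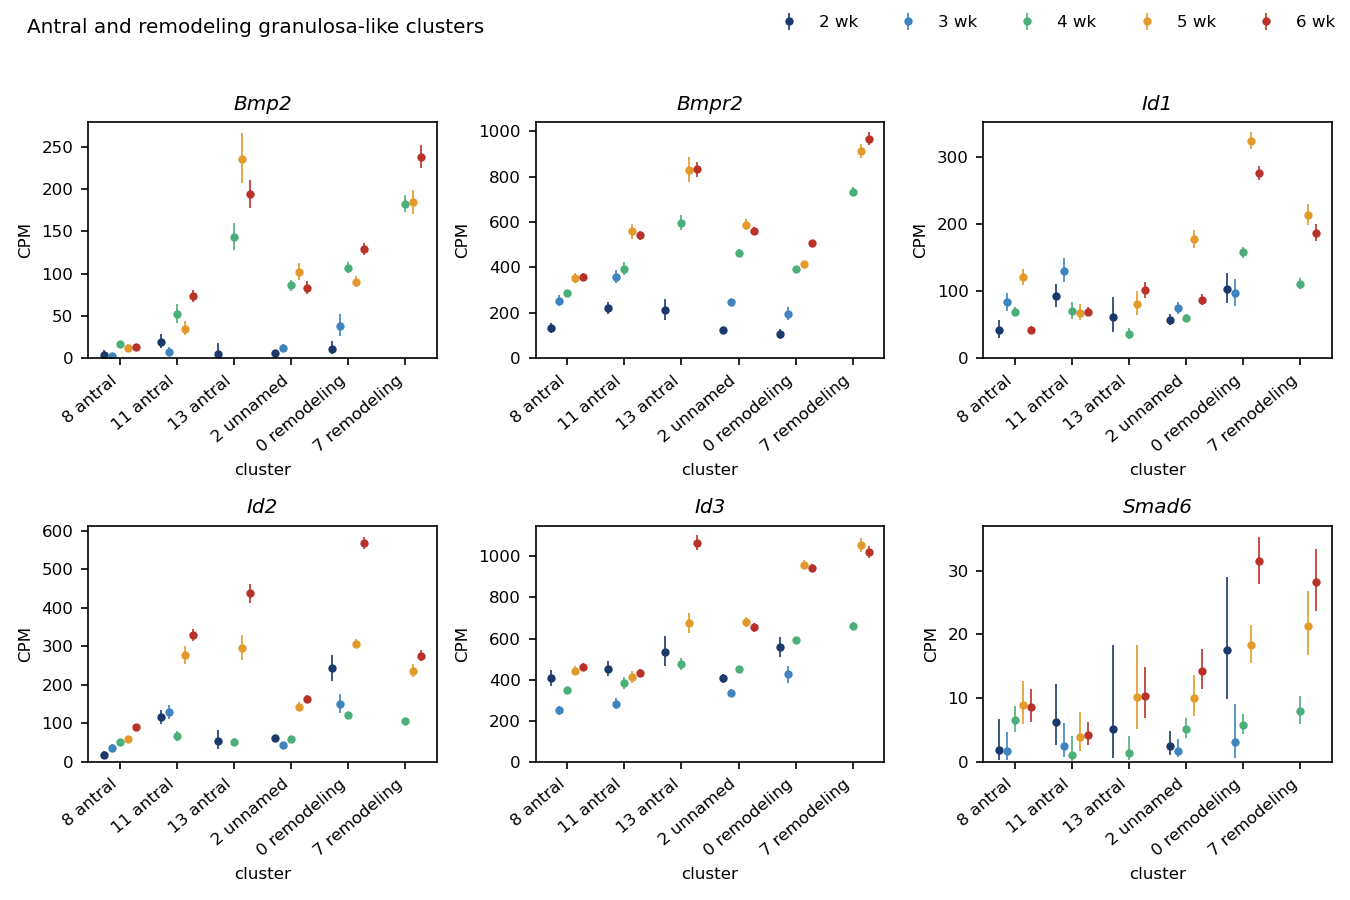
Level in CPM of 6 members in antral clusters 8, 11 and 13, unnamed cluster 2 and remodeling clusters 0 and 7, 1 point per library with its 95% Poisson interval. Bmp2 and Bmpr2 are high in clusters 13 and 7, and Id1 is highest in cluster 0 from 4 wk on. Clusters with fewer than 30 cells in a library have no point there.

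A set of 12 genes that dissociation can induce (Fos, Jun, Hspa1a and others) summed to 8301, 10760 and 6756 CPM in remodeling cells and 7229, 7780 and 6234 CPM in antral cells at 4, 5 and 6 wk. Their part in the Id and Bmp2 ratios was not tested. With BMP genes kept among the clustering genes, remodeling cells numbered 2314 and the Bmp2 and Id1 calls were the same. At a resolution of 0.6 the remodeling group grew to 5506 cells, the Bmp2 ratio ran from 5.30 to 9.61, Bmp2 and Id2 were called, and the Bmpr1b ratio lay above 1, at 1.15 to 1.26.

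Antral cells were next set against primordial cells in all 5 libraries, the ends of follicle growth. Bmpr1b was higher in antral cells by 3.32, 2.56, 2.65, 3.24 and 2.94 times. It was the 1 member called higher of 7 with enough UMIs, and 0 were called lower, beside 1.34% of 8069 genes called higher and 3.49% called lower. The median ratio of the 7 was 1.99, against 0.953 over all genes tested. Bmpr2 was higher by 1.41, 2.34, 2.77, 3.02 and 2.50 times and missed the limit at 2 wk alone. Id1 was lower in each library, at 0.287, 0.732, 0.428, 0.467 and 0.394 of the primordial level, and missed it at 3 wk alone. Id3 was lower in each library too, at 0.403 to 0.651. The 12 dissociation genes were also lower in antral cells, at 6234 to 7780 CPM against 10740 to 15800 CPM in primordial cells. Their part in the Id ratios was not tested. Without the 2 wk library Bmpr1b and Bmpr2 were called, and without the 3 wk library Bmpr1b and Id1. With a library left out the limit is easier to meet for every gene, and the share over all genes was not counted. At a resolution of 0.6 the Bmpr1b ratio ran from 1.90 to 2.43 and no member was called.

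In the mesenchyme each ligand had its own distribution. Bmp2 had its highest mesenchymal median in late theca cells, at 63.0, 111, 123, 67.9 and 123 CPM, followed by Hoxd9+ cells at 56.9 to 74.8 CPM and Col11a1+ cells at 40.8 to 100.1 CPM. Tagln+ cells, at 7.75 to 18.9 CPM, and Col14a1+ cells, at 4.89 to 28.0 CPM, held the least. Bmp4 was spread over several subtypes. Hoxd9+ cells had 13.5, 22.1, 20.9, 18.1 and 24.6 CPM, Cxcl12+ cells 12.6 to 20.2 CPM and Col14a1+ cells 10.8 to 23.2 CPM. Cd24a+ cells reached 26.4 CPM of Bmp4 at 2 wk but 6.78 to 10.9 CPM later. Bmp4 lies at chr14:46383520-46390669 on the minus strand, where Gm15217 and Gm15222 run on the other strand. Bmp7 was found in Cd24a+ cells at 26.4, 36.9, 41.6, 24.0 and 22.0 CPM, in late theca cells at 24.3, 34.3, 32.4, 5.07 and 25.8 CPM, in early theca cells at 19.3 to 30.6 CPM and in dividing mesenchymal cells at 18.0 to 26.2 CPM. Rete ovarii cells, present in numbers at 2 and 3 wk only (54 and 31 cells), had 44.8 and 58.5 CPM.

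Both receptors were lower in each mesenchymal subtype than in antral cells of the same library. Bmpr1b was 26.6 to 47.6 CPM in Tagln+ cells and at most 30.5 CPM in any library of the other mesenchymal subtypes. Bmpr2 was between 83.7 and 158 CPM in Tagln+, Hoxd9+, Cxcl12+, Col11a1+ and Col14a1+ cells, and between 15.3 and 75.6 CPM in theca, Cd24a+ and dividing cells. Smad7 reached 116 CPM in Col11a1+ cells at 5 wk and was lowest, at 16.6 CPM, in late theca cells at 6 wk. Smad6 was under 10 CPM in every mesenchymal subtype and library.

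The Id genes were abundant in this lineage. Id2 stood out in Tagln+ cells, at 903, 653, 824, 777 and 922 CPM, above each value of the other mesenchymal subtypes. Those lay between 41.4 CPM in late theca cells at 3 wk and 392 CPM in Col14a1+ cells at 2 wk. Id3 was 1084 to 1641 CPM in Hoxd9+ cells, 842 to 2103 CPM in Col11a1+ cells and 602 to 1704 CPM in Cxcl12+ cells. Id1 had its highest mesenchymal median in Hoxd9+ cells, at 147 to 193 CPM, and reached 220 CPM in Tagln+ cells at 6 wk. The 12 dissociation genes summed to 17480 to 30200 CPM in Cxcl12+ cells and 16710 to 23730 CPM in Tagln+ cells, above all granulosa groups, and their part in the Id levels was not tested.

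**Figure D5:**
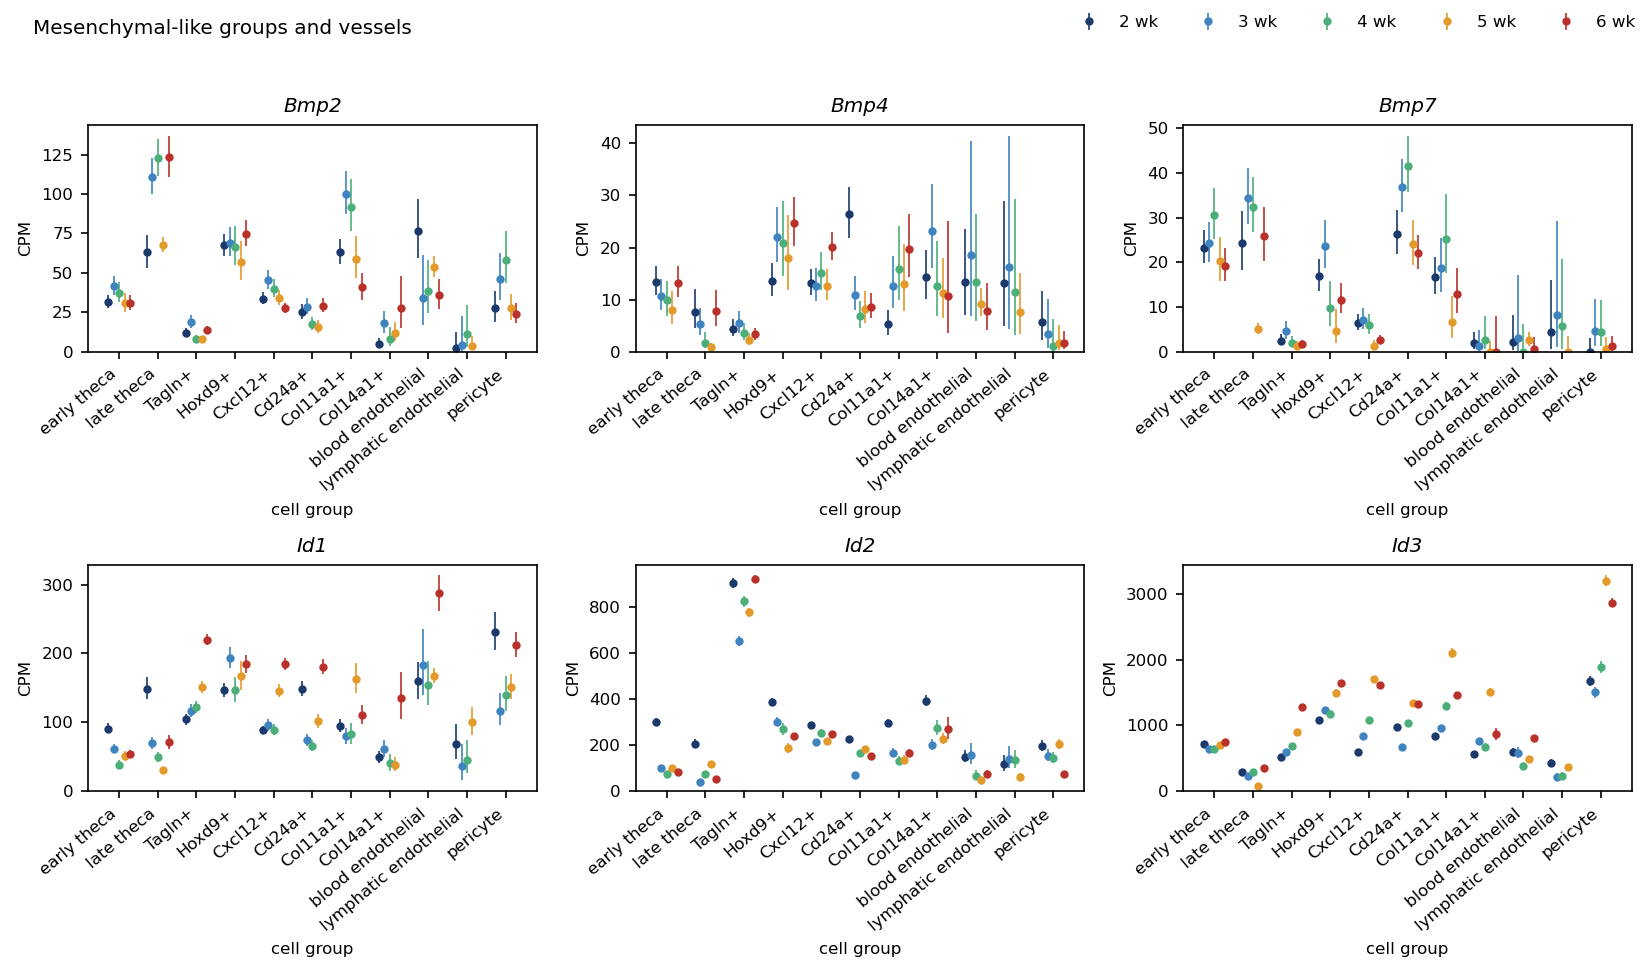
Level in CPM of Bmp2, Bmp4, Bmp7, Id1, Id2 and Id3 in 11 mesenchymal and vessel groups, 1 point per library with its 95% Poisson interval. Bmp2 has its highest median in late theca, Id2 in Tagln+ cells and Id3 in pericytes.

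Late theca cells, which carry the steroid-making genes Cyp11a1 and Cyp17a1, were compared with early theca cells. Id3 was lower in late theca cells, at 286, 224, 297, 84.7 and 359 CPM against 713, 642, 645, 701 and 752 CPM. The ratios were 0.401, 0.348, 0.461, 0.121 and 0.477. It was the 1 member called lower of 7 with enough UMIs, and 0 were called higher, beside 2.78% of 8338 genes called lower and 2.13% called higher. The median ratio of the 7 was 0.683, against 1.05 over all genes tested. Bmp2 was higher in late theca cells in each library, by 1.99, 2.65, 3.27, 2.20 and 3.98 times, and so missed the limit at 2 wk by little. Bmpr2 was lower in each library, at 0.596, 0.347, 0.379, 0.473 and 0.278. Without the 2 wk library Bmp2, Bmpr2 and Id3 were called, and with every cell weighted alike none was. Smad7 was lower in each library as well, at 0.307 to 0.752.

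Late theca cells were uneven between ages. The 5 wk library gave 593 of the 1404 cells, and cluster 9 of the mesenchymal cells, led by Cyp11a1 and Cyp17a1, held 478 of them. In that cluster Id3 was 57.9, 103, 153, 62.6 and 162 CPM, and in cluster 14, the other late theca cluster (led by Cpa1 and Aldh1a7), 482, 338, 503, 184 and 486 CPM. Bmp7 showed the same contrast, with 16.6, 16.9, 19.2, 1.39 and 14.4 CPM in cluster 9 and 30.9, 50.9, 51.4, 21.6 and 33.2 CPM in cluster 14. Within cluster 14 both genes were lowest at 5 wk. The part of the cluster shares in the late theca values of 5 wk was not tested.

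Mesenchymal cells as a whole were set against granulosa cells as a whole (18927 and 17705 cells). Bmp4 was higher in mesenchymal cells by 4.19, 5.03, 8.30, 9.67 and 20.0 times and Bmp7 by 5.01, 6.61, 21.8, 8.08 and 11.9 times. Bmpr1b was lower, at 0.212, 0.113, 0.0716, 0.0985 and 0.127 of the granulosa level. All 10 members had enough UMIs, with 2 called higher and 1 lower, beside 10.4% of 12931 genes called higher and 7.27% called lower. The median ratio of the 10 was 0.890, close to the 0.880 over all genes tested. Bmp2 did not keep a direction. It was higher in mesenchymal cells by 8.81 and 7.94 times at 2 and 3 wk and at 0.677, 0.712 and 0.579 of the granulosa level afterwards, while its level in mesenchymal cells stayed between 33.1 and 45.6 CPM. The make-up of the granulosa cells changed as well. They included 82 remodeling and 182 antral cells of 3006 at 2 wk, and 1344 and 774 of 5097 at 4 wk. The part of this shift in the Bmp2 ratios was not tested. Id2 was higher in mesenchymal cells by 10.4, 5.78, 4.22, 1.72 and 1.75 times. Bmpr2 was at 0.750, 0.382, 0.219, 0.195 and 0.244 and was called lower without the 2 wk library.

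Vessel cells were described by blood endothelial cells (710), pericytes (863) and lymphatic endothelial cells (229). Id3 was higher in pericytes than in any other group in each library, at 1671, 1503, 1888, 3201 and 2865 CPM. Blood endothelial cells had 601, 583, 382, 492 and 809 CPM, so their ratio to pericytes was 0.360, 0.388, 0.202, 0.154 and 0.282. Of 6 members with enough UMIs Id3 was the 1 called lower in blood endothelial cells and 0 were called higher, beside 7.2% of 3831 genes called lower and 5.01% called higher. The median ratio of the 6 was 1.28, against 1.01 over all genes tested. Bmpr2 was higher in blood endothelial cells in each library, by 2.81, 3.21, 1.98, 2.22 and 1.62 times. Id1 was 159, 183, 155, 168 and 287 CPM in blood endothelial cells and 231, 117, 140, 151 and 212 CPM in pericytes, and the groups overlapped. Bmp2 was 76.3, 34.1, 38.7, 53.7 and 35.8 CPM in blood endothelial cells and 27.5, 45.9, 58.3, 27.5 and 23.9 CPM in pericytes, with no common direction. Lymphatic cells held 2.21 to 11.5 CPM of Bmp2 and a thinned share of 1.04% (0.126 to 3.71%), against 0.848% in preantral cells. Smad6 was 5.04 to 15.7 CPM in blood endothelial cells and 0 to 2.35 CPM in pericytes, with no overlap, although at 3 and 4 wk these values rest on 3 UMIs each in blood endothelial cells and 0 in pericytes. Bmp4 was also above pericytes in each library, at 7.77 to 18.6 CPM against 1.12 to 5.66 CPM.

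Outside these lineages hematopoietic cells held Id2 at 304, 399, 375, 444 and 487 CPM and Bmp2 at 28.7, 55.6, 44.8, 122 and 79.8 CPM, with Id1 and Id3 lower than in any other group by their medians. Surface epithelial cells had 456 CPM of Id1 at 2 wk, the highest level of Id1 in any group and library, and 113 to 161 CPM afterwards. Rete ovarii cells, set aside in the ranking, had 452 and 788 CPM of Id2 at 2 and 3 wk. At 3 wk this was above Tagln+ cells, at 653 CPM, and at 2 wk below their 903 CPM. Smad6 in rete ovarii cells was 39.8 and 6.88 CPM, above remodeling cells of the same library.

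Antral cells of 5 wk were compared with those of 2 wk, to ask whether antral cells of different ages differ. The study takes this contrast as first-wave against later-growing follicles, though it describes the first-wave follicles of 2 wk as secondary. Cells named antral at 2 wk may be of an earlier stage than those of 5 wk, which was not tested. Bmp2 was higher at 5 wk by 5.07-fold (3.51 to 7.57), Smad7 by 3.60-fold (2.97 to 4.38), Bmpr2 by 2.71-fold (2.47 to 2.98) and Id2 by 2.46-fold (2.10 to 2.89). These 4 of 8 members with enough UMIs were called higher and 0 lower, beside 4.7% of 9446 genes called higher and 3.71% called lower. The median ratio of the 8 was 2.09, against 0.993 over all genes tested. Bmpr1b was at 1.36 (1.21 to 1.53), Id1 at 1.42 (1.20 to 1.68), Smad6 at 1.73 (0.903 to 3.57) and Id3 at 1.06 (0.990 to 1.13). Age, library and Cell Ranger version cannot be told apart here. Clusters 8, 11 and 13 gave 61, 91 and 30 antral cells at 2 wk and 160, 130 and 87 at 5 wk, and within them Bmp2 went from 3.74 to 12.5 CPM, from 19.4 to 34.4 CPM and from 5.07 to 235 CPM. The 5 wk values rest on 41, 70 and 253 UMIs. Those of 2 wk rest on few UMIs, above all in clusters 8 and 13, so the size of these rises is uncertain.

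Over all groups with enough UMIs, the later ages were set beside 2 wk. At 6 wk Id3 was higher than at 2 wk in 17 of 18 groups, with a median ratio of 1.44, and the interval lay above 1 in 16 of them. Bmpr2 was higher in 15 of 18 groups, with a median ratio of 1.39. Id2 was lower in 12 of 18 groups, with a median ratio of 0.687, and was already lower in 14 of 20 groups at 3 wk. Most granulosa groups went the other way at 6 wk, with Id2 ratios of 1.58 in preantral, 3.82 in antral, 1.95 in remodeling and 4.73 in dividing cells. Primordial granulosa cells did not, at 0.712. Outside the granulosa groups Id2 was also higher in hematopoietic cells, at 1.60, and near 1 in Tagln+ cells, at 1.02. Smad6 was lower at 3 wk in 2 of 2 groups with enough UMIs and higher at 6 wk in 7 of 7. Bmp7 was lower at 5 wk in 8 of 8 groups, with a median ratio of 0.576. Before that it was higher at 3 wk in 8 of 9 groups, with 1.12, and at 4 wk in 4 of 8. At 3 wk Id3 was lower in 12 of 20 groups, with a median ratio of 0.900, and Bmpr2 was higher in 10 of 20. These groups share 1 library per age, so they are not independent of each other. The same counts were not made for all genes, so whether they are unusual for a pair of libraries was not tested. At 5 and 6 wk the Cell Ranger version differed from that of 2 wk as well.

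The other 45 genes of the pathway list were read by the same rule, and 18 of them reached 50 CPM, summed over libraries, in at least 1 group. Of 12 ligands this was Bmp3, at 62.8 CPM in remodeling cells and close behind, at 57.4 CPM, in Tagln+ cells. Of 8 receptors these were Bmpr1a (120 CPM in Tagln+ cells), Acvrl1 (96.7 CPM) and Eng (533 CPM), the last 2 in blood endothelial cells, where they serve as receptor and co-receptor of BMP9. Of 6 transducers Smad1 reached 340 CPM and Smad5 99.8 CPM in lymphatic cells and Smad4 122 CPM in remodeling cells. Smurf2 was about equal in blood endothelial (64.7 CPM) and lymphatic cells (64.3 CPM). Of 14 extracellular or membrane antagonists and modulators 7 did, among them Chrdl2 (80.4 CPM) and Nbl1 (683 CPM) in rete ovarii cells, Twsg1 (142 CPM) in surface epithelial cells, Fstl1 (535 CPM) in Col14a1+ cells, Crim1 (317 CPM) in remodeling cells and Bambi (143 CPM) in Hoxd9+ cells. Of 5 further targets Id4 (176 CPM) and Msx1 (50.4 CPM) were highest in rete ovarii cells. All rete ovarii values of this paragraph rest almost wholly on the 2 and 3 wk libraries, and Msx1 ran from 0 to 70.9 CPM over them. Hey1 was about equal in primordial (89.5 CPM, 19.5 to 144 CPM over libraries) and blood endothelial cells (88.7 CPM).

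In remodeling over antral cells 4 of the 27 pathway genes with enough UMIs were called higher and 0 lower, beside 4.43% and 2.29% of all genes tested. These were the modulator Bmper (2.18 to 3.60 times), the antagonist Nbl1 (6.88 to 8.31), the secreted glycoprotein Fstl1 (2.27 to 2.99) and the target Atoh8 (2.50 to 5.66). In antral over primordial cells 4 of 16 were called lower, among them Nbl1, Fstl1 and Hey1, and 0 higher, beside 3.49% and 1.34%. In late over early theca cells 2 of 19 were called lower (Nbl1 and Fstl1) and 0 higher, beside 2.78% and 2.13%. In blood endothelial cells over pericytes 2 of 9 were called higher (Eng and Smad1) and 1 lower (Nbl1), beside 5.01% and 7.2%. In mesenchymal over granulosa cells 9 of 31 were called higher, among them the pseudoreceptor Bambi (5.86 to 8.61 times) and Id4 (5.36 to 14.4), and 2 lower (Bmper and Crim1), beside 10.4% and 7.27%. In antral cells of 5 over 2 wk 4 of 23 were called higher (Bmp6, Chrdl1, Grem1 and Atoh8) and 1 lower (Fstl1), beside 4.7% and 3.71%.

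Likeness of pattern was described by Pearson's r of log2(CPM + 1) over 96 points, the groups with at least 30 cells in each library, among 13420 genes with at least 500 UMIs. The points of a library share its cells, depth and software, so r is a description. Bmpr1b was most like Tshz1 (0.869), Ephx2 (0.866) and Cyb5a (0.838), and Bmpr2 most like Foxo1 (0.831), Ext1 (0.817) and Rhobtb1 (0.815). Bmp4 was most like Clstn1 (0.759), Nfic (0.756) and Tbc1d16 (0.744), and Bmp7 most like Col26a1 (0.669), Prr5 (0.668) and Ptch1 (0.666). Bmp2 had the weakest match, with Arhgef6 (0.603), Atp2a3 (0.550) and Mef2c (0.540). Among the inhibitors Smad6 was most like Plscr1 (0.725), Ssbp3 (0.676) and Pdcd6 (0.666), and Smad7 was most like another member, Bmpr2 (0.664), then Fam117b (0.658) and Fam78a (0.646). The target Id1 was most like Tspan7 (0.683), Spin1 (0.639) and Tjp1 (0.592), Id2 most like Setbp1 (0.714), the heat-shock gene Hspa1a (0.672) and Tagln (0.636), and Id3 most like Rbms3 (0.738), Sgce (0.722) and Pkd2 (0.716).

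Within lineages the members were related differently. Over 16 granulosa clusters by library (77 points) Bmp2 had r of 0.813 with Bmpr2, 0.780 with Id2, 0.726 with Id3, 0.681 with Bmpr1b and 0.330 with Id1. Over 20 mesenchymal clusters by library (91 points) Bmp2 had r of -0.593 with Id2, -0.441 with Bmpr2 and 0.034 with Id1. Id1 and Id3 had r of 0.584 and 0.620 in the granulosa and mesenchymal clusters. Bmpr1b and Bmpr2 had r of 0.897 and 0.483.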

How the data were processed

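Single cells of 5 ovary suspensions, 1 per age, were measured with 10x Genomics 3′ v3.1 chemistry. The deposited values are UMI counts per gene and cell, which the authors made with Cell Ranger 3.1.0 (2 to 4 wk) and 6.0.1 (5 and 6 wk), per the file headers. The submitters' processing notes name mm10 and Seurat 4.1.0. No file used here gave cell types. All deposited cells were integrated and clustered in Seurat 5.3.0 (2000 variable genes less 13 BMP genes, 30 principal components, resolution 1), and granulosa and mesenchymal cells were clustered again. A cluster took a name with at least 3 markers detected in 10% of its cells and at 1.5 times the median cluster, at least 30 cells, under 25% doublets, at most 90% of its cells from 1 library and a margin of 0.2 over the next list (the margin for the second clustering). It stayed unnamed where its median UMI count was under 33.3% of the library's or where its 10 leading genes held more markers of another list. These limits were set after the clusters were seen. Doublets were called with Scrublet (scanpy 1.11.5) and kept. The 546 cells with shared barcodes were kept, and an alternative left them out.

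UMI counts were summed per group and library and scaled to CPM. Intervals are exact Poisson for levels, exact conditional for ratios and Clopper-Pearson for shares, all at 95% and for counting error only. Groups under 30 cells in a library gave no level. All 10 members were reported, pathway genes were named where they reached 50 CPM or were called, and the 3 genes with the highest r were named per member. The members and gene lists were chosen with earlier results of these data known. The alternatives were another resolution, BMP genes kept for clustering, doublets or shared barcodes left out, a stricter cell filter (at least 1000 genes and under 10% mitochondrial UMIs), every cell weighted alike, totals without mitochondrial, ribosomal and hemoglobin genes, and each library left out. Some genes of the lists are not reported here.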

Additional observations from a re-analysis of the deposited data

Results flagged for a closer look

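In 5 comparisons the ratio of a member lay on opposite sides of 1 at different ages, with both intervals clear of 1 and the ratios at least 4-fold apart. With 1 library per age the difference between ages was not tested in any of them.

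Bmp2 in antral over primordial granulosa cells was 0.306 (0.182 to 0.504) at 3 wk, from 26 and 47 UMIs, and 10.1 (5.13 to 23.5) at 6 wk, from 1018 and 8 UMIs. Smad7 in the same comparison was 0.480 (0.388 to 0.591) at 2 wk and 2.07 (1.64 to 2.64) at 4 wk. Id2 was 0.428 (0.352 to 0.525) at 4 wk and 4.84 (3.74 to 6.39) at 6 wk.

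Bmp7 in late over early theca cells was 0.249 (0.176 to 0.354) at 5 wk and 1.42 (1.09 to 1.84) at 3 wk. Bmp2 in mesenchymal over granulosa cells was 8.81 (7.60 to 10.3) at 2 wk and 0.579 (0.547 to 0.612) at 6 wk. The shares of the granulosa groups differed between these ages, and the part of this in the ratios was not tested.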

How the results depend on the processing

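The limits were counting error only, 1 library per age and rebuilt cell groups. Ratios between groups were taken within each library, so the groups compared were paired by library. With 1 library per age and no replicate numbers in the labels, no paired test was run. At a resolution of 0.6, 0 members were called in antral over primordial cells and 6 of 10 kept their highest group (Bmp7, Bmpr1b, Smad6 and Id1 changed it). With every cell weighted alike 1 member (Id1) was called in remodeling over antral cells and 0 in late over early theca cells, and 17 of the 30 genes named for likeness were kept, against 19 with doublets left out. Over antral cluster 13 alone 1 member (Id1) was called, and over clusters 8 and 11 Bmp2 with Id2 and Bmp2 with Smad6. Leaving out 1 library at a time gave up to 2 members called in antral over primordial cells (without 2 or 3 wk) and up to 3 in late over early theca cells (without 2 wk). The library and cluster alternatives and the one without shared barcodes were chosen after seeing the data. The share of all genes called was counted for the main setting only, so the calls under alternatives have none beside them. Of 320 member ratios recomputed, 307 stayed within 1 SD over libraries (or, for 5 over 2 wk, within the interval) and 13 did not, 9 of these at a resolution of 0.6, and 0 called ratios changed direction. The Bmpr1b ratio of remodeling to antral cells, which was not called, turned from a median of 0.757 to 1.23 at that resolution. The cause was not tested.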
